A study of Mus musculus with 3 samples.

Results

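Hox-negative wall muscle is the name used here for smooth muscle cells of the arterial wall in which no transcript of a posterior Hox gene was counted. The cells were chosen by their own counts of unique molecular identifiers (UMIs, 1 per captured transcript). Each had at least 10000 UMIs, at most 15% of them mitochondrial, and at least 2% of them from the contractile genes Acta2, Tagln, Myh11 and Cnn1. Each also had fewer than 5 UMIs of Rgs5 per 10000, fewer than 3 UMIs of Sfrp2, and 0 UMIs over Hoxa, Hoxb, Hoxc and Hoxd genes of groups 6 to 10. The rule kept 1095 of 8997 barcodes, of which 562 came from the 4491 Control barcodes and 533 from the 4506 TKI barcodes. Cells that met every other condition but held at least 1 posterior Hox UMI, 518 in Control and 687 in TKI, are called Hox-positive wall muscle and serve as the comparison.

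Arteries of wild-type mice were digested, and the RNA of single cells was captured in droplets and sequenced from the 3′ ends of transcripts. Control is taken as vehicle and TKI as sunitinib. The library label says only TKI, and sunitinib is the compound that the series design lists as given alone. Both libraries carry the label 3 weeks. Sunitinib blocks the kinase domain of several receptors, including those for VEGF and PDGF. With 1 library for each treatment, differences could not be checked against replicates and were not tested, and the 95% intervals cover counting error only. The labels give no strain, sex, age or dose, do not say how many mice were used or pooled, and name vascular tissue without saying which vessels or segments.

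Hox genes encode transcription factors that are switched on in the embryo in the order in which they lie along their chromosomal clusters, the anterior groups towards the head and the posterior groups further towards the tail. Vascular smooth muscle keeps part of this record in the adult. Muscle of the aortic root, arch and neck vessels, which comes largely from neural crest and the heart fields, has low posterior Hox expression, whereas muscle of the descending aorta, which comes from trunk mesoderm, carries it.

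Hox-negative cells had a median of 16437 UMIs in Control and 17188 in TKI, and Hox-positive cells 16939.5 and 17341. The median mitochondrial share of Hox-negative cells was 6.38% in Control and 7.12% in TKI. Their summed UMIs were 9913192 and 9551776, and levels are given as CPM, the UMIs of a gene per 1000000 UMIs of such a sum. Of the other cell types, immune markers were nearly absent, whereas some markers of pericytes and adipocytes were found in most cells. All 11 macrophage markers together gave 24 UMIs in Control and 23 in TKI, with 9 and 8 of them at 0, among them Ptprc, Csf1r and Adgre1. The 9 lymphocyte markers gave 1 and 5 UMIs, with 8 and 7 of them at 0. The 10 endothelial markers summed to 40.7 and 45.9 CPM, mostly Pecam1, with Kdr at 0 in both libraries. The 10 fibroblast markers summed to 54.9 and 55.4 CPM, mostly Col14a1, with Lum and Clec3b at 0 in both. In Hox-positive cells the endothelial list was higher, at 60.7 and 67.8 CPM. The fibroblast list there was higher in Control, at 89.3 CPM, and lower in TKI, at 32.8 CPM. Its member Dcn had a log2 ratio of Hox-negative to Hox-positive cells of -4.01 in Control. In Hox-negative cells the 5 erythroid markers gave 91 UMIs in Control and 6 in TKI. The 7 pericyte markers summed to 394 and 422 CPM, in 99.1% of cells of both libraries, and Cspg4 gave most of the UMIs, while Higd1b, Vtn and Ndufa4l2 were at 0 in both. The 7 adipocyte markers summed to 254 and 276 CPM, nearly all of it Fabp4, with Plin1, Lep and Retn at 0 in both. The 12 cardiomyocyte markers summed to 105 and 111 CPM, led by Ryr2, with Myl2 and Myl7 at 0 in both. Without cells holding at least 2 UMIs of Pecam1, Cdh5, Ptprc, Dcn and Lum together, 584 genes were 1.5-fold higher and 289 lower in TKI, against 572 and 309 with them. The part of pericyte, adipocyte, cardiomyocyte and erythroid transcripts in the results was not tested. The Control and TKI libraries shared 3 barcodes.

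Cells without a posterior Hox UMI made up 52.0% of wall muscle in Control (562 of 1080, exact Clopper-Pearson interval 49.0 to 55.1) and 43.7% in TKI (533 of 1220, 40.9 to 46.5). A count of 0 depends on depth. When every cell was thinned at random to 10000 UMIs, the shares were 62.7% (59.7 to 65.6) and 54.1% (51.3 to 56.9), and among cells with at least 20000 UMIs they were 45.04% and 40.35%. The Control share was the higher at each of these depths. The cells with at least 20000 UMIs are a much smaller set, and no interval was computed for their shares. Which vessel segments went into each library is not given, so a difference in dissection cannot be told apart from one in treatment. Cells just outside the rule, with a single posterior Hox UMI, numbered 175 in Control and 202 in TKI. With the other conditions held, 120 Control and 71 TKI cells had 2 Sfrp2 UMIs, just inside the rule, and 87 and 47 had 3, just outside. For Rgs5, 26 and 24 cells had at least 4 and under 5 UMIs per 10000, and 18 and 27 had at least 5 and under 6. By posterior Hox UMIs, 140 and 134 further cells held 2 posterior Hox UMIs, and 203 and 351 cells held 3 or more.

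**Figure D1:**
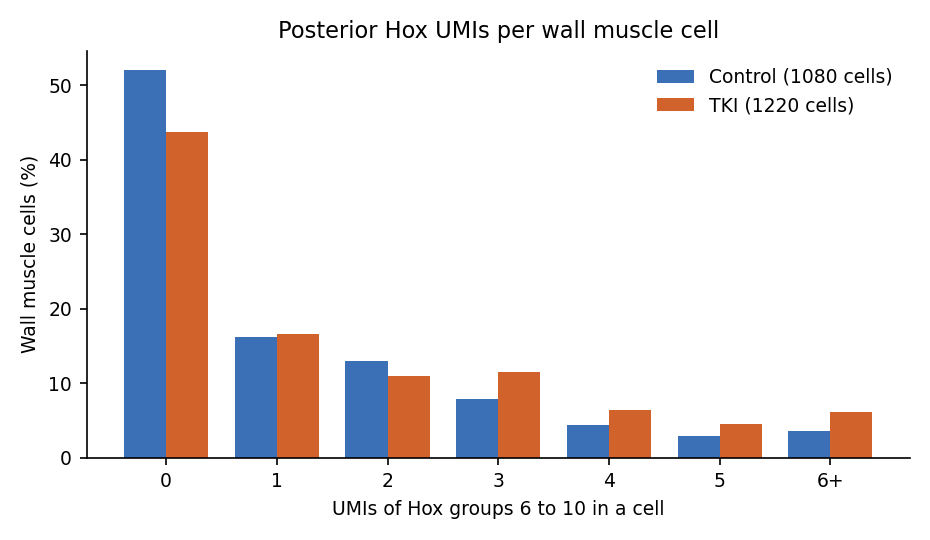
Wall muscle cells (y axis, percent of the cells of a library) by the number of UMIs of Hox groups 6 to 10 in the cell (x axis), in Control (blue) and TKI (orange). The bars at 0 are the Hox-negative cells, 52.0% of Control and 43.7% of TKI wall muscle, and cells with a single posterior Hox UMI are the next largest class in both libraries.

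The Hox-negative cells did express anterior Hox genes, and 81.3% of those in Control held a UMI of groups 1 to 5. Hoxb2 had the highest CPM of groups 1 to 5, at 44.5 CPM in Control and 39.99 in TKI, with Hoxa3 at 24.4 and 21.98, Hoxb4 at 16.7 and 22.6 and Hoxa5 at 14.5 and 15.9. Hoxa3 was the next highest in Control, and Hoxa3 and Hoxb4 had overlapping counting intervals in TKI. The CPM of a gene in 3′ counts is not scaled by transcript length, and the annotation overlaps Hoxa5 with Hoxa3 on the same strand. Against Hox-positive muscle of the same library, none of the 6 genes measured of groups 2 to 4 was 1.5-fold apart. Hoxa3 had a log2 ratio of 0.18 (-0.09 to 0.45) in Control and 0.21 (-0.06 to 0.48) in TKI, and Hoxb2 one of -0.21 (-0.40 to -0.02) and -0.20 (-0.39 to -0.01), while Hoxb4 had -0.52 (-0.82 to -0.23) and -0.12 (-0.37 to 0.14). The 2 group 5 genes measured were lower in Hox-negative cells. Hoxa5 stood at 14.5 against 32.0 CPM in Control and 15.9 against 29.0 in TKI, log2 ratios of -1.14 (-1.44 to -0.85) and -0.87 (-1.15 to -0.59). Hoxb5 had ratios of -0.82 (-1.28 to -0.37) and -0.84 (-1.24 to -0.45). Both were within 1.5-fold in TKI among cells with at least 20000 UMIs (-0.583 and -0.47), and Hoxa5 in Control among cells with at least 5% contractile UMIs (-0.579). Hoxa5 UMIs were also in 51 of 110 and 54 of 120 endothelial barcodes, and without cells holding at least 2 UMIs of other types its ratios were -1.22 and -1.02. The posterior genes, which the rule set to 0, were led in Hox-positive cells by Hoxa7 (57.2 CPM in Control, 78.8 in TKI), Hoxb6 (32.4 and 26.9) and Hoxb7 (22.1 and 30.7), and of groups 11 to 13 the only UMIs were 3 of Hoxa11 in Hox-positive Control cells.

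**Figure D2:**
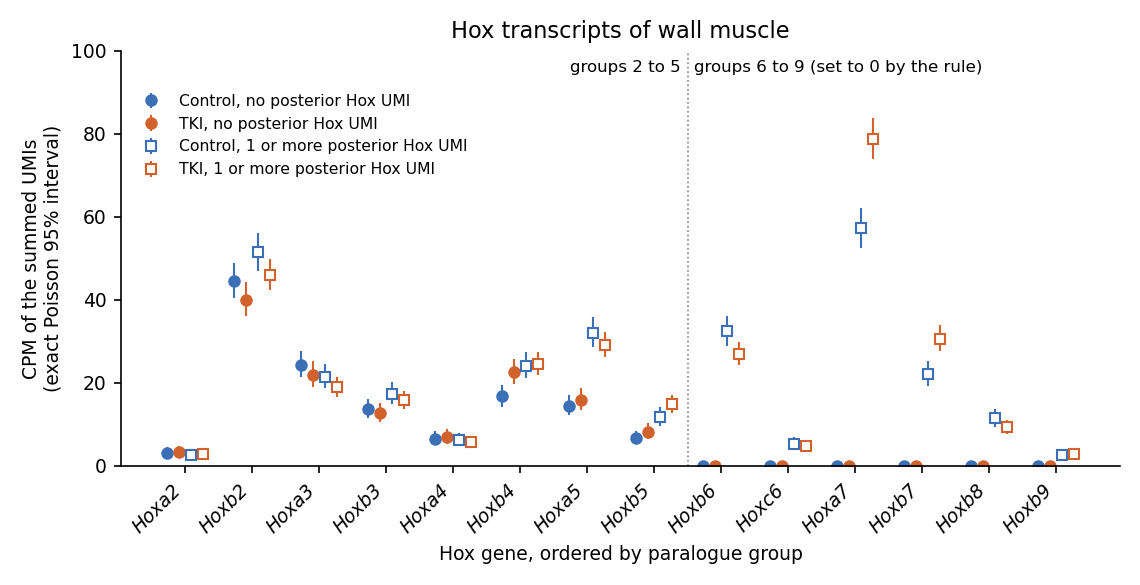
CPM of Hox genes (y axis, with exact Poisson 95% intervals) ordered by paralogue group (x axis) in Hox-negative (filled circles) and Hox-positive (open squares) wall muscle of Control (blue) and TKI (orange). The classes lie close together for Hoxa3 and Hoxb2 and apart for Hoxa5 (14.5 against 32.0 CPM in Control), and groups 6 and above are 0 in Hox-negative cells by the rule.

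Hand2, a basic helix-loop-helix factor needed for the heart, its outflow tract and the pharyngeal arches, had the highest ratio of the other positional transcription factors. It stood at 44.4 CPM in Control and 47.5 in TKI in Hox-negative cells, and at 4.18 and 3.41 CPM in Hox-positive cells. The log2 ratios of Hox-negative to Hox-positive cells were 3.41 (2.94 to 3.91) and 3.80 (3.35 to 4.28). Hand2 lies on chromosome 8 of GRCm38 at 57320983 to 57324633 on the plus strand, beside the long non-coding RNA gene Hand2os1 on the minus strand (57281117 to 57324233). The RefSeq start sites lie 124 bases apart and point away from each other. Hand2os1 stood at 13.4 and 11.1 CPM in Hox-negative cells and at 0.612 and 1.47 CPM in Hox-positive cells, so both neighbours showed the same direction. The longest annotated Hand2os1 transcript also runs across Hand2 on the other strand. The sources used here do not say whether counting used strand, and without it their reads there cannot be told apart. The stretch upstream of Hand2 is shown because it holds the start of Hand2os1 and ends at that of Hand2. These are the 250 bases before the RefSeq start of Hand2 (GRCm38.p6, plus strand, chr8:57320733-57320982), with the 173 bases that also fall in the start-site window of Hand2os1 (250 bases before its start to 50 after) in capitals.
Hand2 upstream: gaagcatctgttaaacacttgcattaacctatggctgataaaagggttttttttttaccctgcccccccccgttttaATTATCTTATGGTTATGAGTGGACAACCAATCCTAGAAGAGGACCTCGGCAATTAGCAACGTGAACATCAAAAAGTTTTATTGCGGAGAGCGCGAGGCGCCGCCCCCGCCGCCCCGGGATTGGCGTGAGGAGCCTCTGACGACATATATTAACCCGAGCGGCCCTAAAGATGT

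Cells with a Hand2 UMI were 36.1% of Hox-negative cells in Control and 36.4% in TKI, against 3.86% and 3.20% of Hox-positive cells. At 10000 UMIs per cell the shares were 27.0% (23.4 to 30.9) and 27.8% (24.0 to 31.8). They were 2.29% and 1.98% in cells with a single posterior Hox UMI and 3.45% and 2.56% in cells with 3 or more. A step thus lay between 0 UMIs and 1, and the shares at 3 or more were not lower than those at 1. Endothelial barcodes, taken as cells that should lack the gene, had a Hand2 UMI in 0 of 110 in Control (exact interval up to 3.30%) and 1 of 120 in TKI, at median depths of 9941 and 9958.5 UMIs. At equal depth the share over all Hox-positive cells was 2.51% and 2.33%, within the counting intervals of the endothelial barcodes. With only 110 and 120 such barcodes these intervals are wide. They cannot decide whether a Hand2 UMI in a Hox-positive cell is background. Tbx20, a T-box factor of the heart and its valves, was at 20.8 and 17.3 CPM in Hox-negative against 4.28 and 4.49 CPM in Hox-positive cells (log2 ratios 2.28, 1.79 to 2.79, and 1.94, 1.504 to 2.40). Its share of cells at equal depth was 14.2% and 14.1% at 0 posterior Hox UMIs, 6.29% and 4.95% at 1, and 1.97% and 2.56% at 3 or more. A Tbx20 UMI was in 1 of 110 Control and 1 of 120 TKI endothelial barcodes (exact intervals up to 4.96% and 4.56%). The shares at 1 posterior Hox UMI lay above these limits, and those at 3 or more below. Gata4, Nkx2-5 and Isl1, factors of cardiac muscle and its progenitors, gave at most 4 UMIs each in either library of Hox-negative cells.

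The whole-transcriptome comparison of the classes is a description, since the rule chose the cells on counts of the same transcriptomes. In Control, 190 of 10079 genes with at least 50 UMIs over both sums (1.89%) were at least 1.5-fold higher in Hox-negative cells and 205 (2.03%) as much lower, 3.92% in all. In TKI the numbers were 190 (1.82%) and 251 (2.41%) of 10429, 4.23% in all. Of 24 positional transcription factors measured, Hand2, Tbx20 and Prrx2 were 1.5-fold higher in both libraries, and Irx3 in Control. Prrx2 was within 1.5-fold in Control after thinning (0.36) and in TKI with at most 8% mitochondrial UMIs (0.54), and Irx3 in Control without cells holding UMIs of other types (0.47) or as a mean over cells (0.57). Tbx18, a factor of the proepicardium and of mural cells, was the 1 member that was lower in both (25.1 against 45.6 CPM in Control and 28.4 against 55.3 in TKI). The median of the list was 0.23 in Control and 0.14 in TKI, beside medians over all genes of -0.02 and -0.01. Gata6 (-0.05 and -0.06), Foxc1 (-0.07 and -0.29), Twist1 (-0.12 and -0.14) and Prrx1 (-0.03 and -0.10) were within 1.5-fold.

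Several secreted and signalling genes went with the lack of posterior Hox UMIs. Igfbp4, a secreted binder of insulin-like growth factors, stood at 61.6 CPM in Control and 46.6 in TKI in Hox-negative cells, against 17.7 and 12.9 CPM in Hox-positive cells. It is also expressed outside muscle, since 51.8% and 43.3% of endothelial barcodes held an Igfbp4 UMI. Enpp2 encodes autotaxin, the enzyme that makes lysophosphatidic acid, and stood at 22.6 and 18.9 against 7.04 and 5.81 CPM. Lpl, the lipase that releases fatty acids from lipoproteins, stood at 13.5 and 13.1 against 4.79 and 2.48 CPM. The Rac exchange factor gene Prex2, Sphkap, which encodes an anchor protein of protein kinase A, and the DNA helicase gene Brip1 were also among the 10 highest, as were Hand2, Hand2os1 and Tbx20. Prex2, Sphkap and Brip1 had log2 ratios between 1.28 and 1.79. Prex2 UMIs were also in 53.6% of Control and 54.2% of TKI endothelial barcodes. Outside these 10, and named because a list they belong to was described, Rspo3, a secreted enhancer of Wnt signalling, had ratios of 1.17 and 0.91, Nrp2, a receptor for semaphorins and VEGF, 1.68 and 1.28, and Pln, which encodes the calcium pump inhibitor phospholamban, 1.07 and 1.38. Tnnt2 and Actc1, troponin T and actin of the heart, were also higher, at ratios of 1.14 and 1.33 and of 1.38 and 1.82. Actc1 UMIs were found in 1.25% and 2.06% of cells, and 1 Control cell held 63 of the 124.

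Genes that stood lower in Hox-negative cells were led by Sema3a, a secreted semaphorin that repels axons and restrains endothelial cells. It was at 8.07 CPM in Control and 7.43 in TKI in Hox-negative cells, against 30.7 and 23.8 in Hox-positive cells (log2 ratios -1.93, -2.30 to -1.57, and -1.68, -2.07 to -1.30). At equal depth its share of cells was 6.41% and 7.69% at 0 posterior Hox UMIs, 22.9% and 20.3% at 1, and 24.1% and 20.5% at 3 or more. The others among the 10 lowest were the lymphangiogenic factor Vegfd, the BMP antagonist Chrdl1, the matrix protein gene Tnc (25.8 against 63.4 CPM in Control), the cytochrome P450 gene Cyp1b1, the ATP receptor P2rx1, the myosin kinase gene Mylk2, the transporter gene Slc22a2, and Rgs17 and Rgs5, regulators of G protein signalling, of which Rgs5 was used by the rule. Cyp1b1 UMIs were also in 75.5% and 78.3% of endothelial barcodes, and without cells holding at least 2 UMIs of other types its ratios were -1.13 and -1.05, against -1.25 and -1.23 with them. The share of cells with Tbx18 or Tnc was higher in each class with posterior Hox UMIs than at 0.

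**Figure D3:**
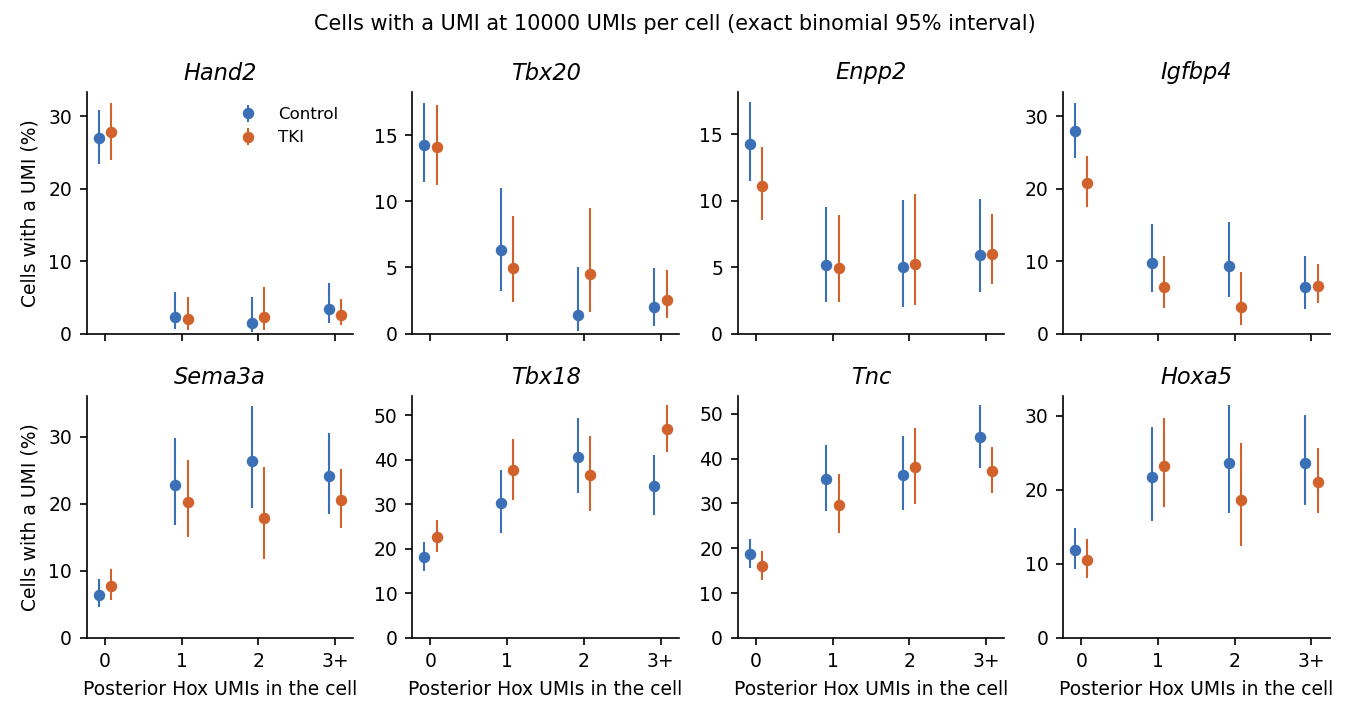
Share of wall muscle cells with a UMI of 8 genes after thinning to 10000 UMIs (y axis, percent, with exact binomial 95% intervals) by the number of posterior Hox UMIs in the cell at full depth (x axis) in Control (blue) and TKI (orange). Hand2 was found in 27.0% and 27.8% of cells at 0 and in 3.45% or fewer in every other class, while Sema3a shows the opposite step.

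The Hox-negative cells were not uniform in these genes. In 284 of 562 Control cells (50.5%) and 266 of 533 TKI cells (49.9%) there was a UMI of Hand2, Hand2os1 or Tbx20, against 10.04% and 9.17% of Hox-positive cells. At equal depth the shares were 39.3% and 40.3% against 5.98% and 6.11%. The split into cells with and without such a UMI was made after the data were seen and describes the sums only. Cells with a UMI had Igfbp4 at 92.5 CPM in Control and 69.1 in TKI, cells without 25.6 and 22.2, and Hox-positive cells without 13.1 and 9.71. For Sema3a the order was the reverse, at 2.44 and 4.03 CPM with, 14.6 and 11.1 without, and 31.4 and 25.03 in Hox-positive cells without. Hoxb5 stood at 2.44 and 3.22 CPM in Hox-negative cells with a UMI of the 3 genes and at 11.6 and 13.7 CPM in those without, which is near the 11.3 and 15.1 CPM of Hox-positive cells without. Igfbp4 and Sema3a in Hox-negative cells without such a UMI thus lay between the other 2 sums in both libraries, and Hoxb5 in TKI but not in Control. Cells without such a UMI can still be cells in which it was missed at this depth.

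The comparison of TKI with Control asks how the muscle differed between mice given sunitinib and vehicle. Of the genes outside the rule, Hand2, Tbx20, the anterior Hox genes and the contractile genes were each within 1.5-fold, while 4 other positional factors and many chaperone, immediate early and ERK feedback genes were lower in TKI and many glucocorticoid-induced genes higher. Over both sums 10142 genes had at least 50 UMIs. Of these, 572 (5.64%) were at least 1.5-fold higher in TKI and 309 (3.05%) at least 1.5-fold lower, 8.69% in all, and the median log2 ratio over all was 0.08. With TMM factors, which shift every ratio down by 0.08, 397 genes were higher and 424 lower. With only cells lacking a UMI of any Hox gene, 343 genes were that much higher. A smaller set of cells holds fewer UMIs, and genes that fall under 50 UMIs there are no longer counted. In Hox-positive cells 614 (5.91%) and 326 (3.14%) of 10383 genes were as far apart, 9.05% in all. Both classes come from the same 2 libraries, so their values stand side by side and do not support each other.

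Hand2 and Tbx20, higher in the Hox-negative class in both libraries, and Tbx18, lower there in both, were within 1.5-fold between TKI and Control. Hand2 had a log2 ratio of 0.10 (-0.09 to 0.29), Tbx20 of -0.27 (-0.57 to 0.04) and Tbx18 of 0.18 (-0.08 to 0.43). Of 8 anterior Hox genes measured, 0 were 1.5-fold higher and 0 lower, with a median of 0.09 and Hoxb4 highest at 0.43 (0.13 to 0.73). Of the 24 other positional factors, 0 were 1.5-fold higher and 4 lower, where 3.05% of all genes were lower, with a list median of -0.10. These were Foxs1, a forkhead factor of mural cells (52.4 CPM in Control, 24.9 in TKI, log2 ratio -1.07, -1.30 to -0.85), the mesenchymal forkhead gene Foxc2 (-0.70), Sox9, a factor of cartilage and valve cells (-0.74), and Irx3 (-0.66). In cells with a Hand2, Hand2os1 or Tbx20 UMI the ratio of Sox9 was -0.51 and that of Irx3 -0.36, both within 1.5-fold. Foxs1 had a ratio of -1.02 in Hox-positive cells and Sox9 one of -0.67.

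Of 22 contractile genes outside the rule 0 were 1.5-fold higher and 0 lower. Their median was 0.10, beside 0.08 over all genes, and 18 of 22 lay above 0. Myl9, the myosin regulatory light chain, stood at 3106 CPM in Control and 4029 in TKI (log2 ratio 0.38, 0.35 to 0.40), and Lmod1, an actin filament nucleator, had a ratio of 0.33 (0.29 to 0.37). Myocd, the co-activator that switches on contractile genes, stood lower at 185 and 140 CPM (-0.40, -0.50 to -0.30). The 4 contractile genes of the rule had a median of 0.19, with Acta2 at 0.25 and Cnn1 at -0.04. Per cell and 10000 UMIs they took a median of 410.5 UMIs in Control (204 to 808) and 471 in TKI (215 to 846). The minimum of 2% in the rule sets the lower ends of both ranges, so their overlap is partly fixed by it. Of 15 elastic fibre genes and 16 collagens, 0 were 1.5-fold apart, with medians of 0.05 and 0.01. Eln, which encodes elastin, was the lowest of the elastic fibre genes at 1317 and 960 CPM (-0.46, -0.50 to -0.42), and Col3a1 stood at 637 and 643 CPM.

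Heat shock genes, which encode chaperones and are switched on by the factor HSF1 when proteins unfold, were lower in TKI. Of 20 measured, 15 were 1.5-fold lower and 0 higher, with a median of -0.73, where 3.05% of all genes were lower. Hspa1b, an inducible HSP70, stood at 473 CPM in Control and 157 in TKI (log2 ratio -1.59, -1.68 to -1.51), and its near-identical neighbour Hspa1a at 840 and 398 CPM. Reads that the counting could not assign between those 2 genes make their split uncertain. The HSP70 co-chaperone Dnaja1 stood at 782 and 334 CPM (-1.23, -1.29 to -1.17), and Hsph1, a nucleotide exchange factor of HSP70, at 340 and 160. The members closest to 0 were the HSP90 co-chaperone Fkbp4 (-0.19) and Bag3 (-0.29). Per cell and 10000 UMIs the list took a median of 162 UMIs in Control (51 to 870) and 100 in TKI (38 to 477), so the cells of the libraries overlapped. In Hox-positive cells 13 of 20 were lower, with a median of -0.69. The 250 bases before the start of Hspa1b (GRCm38.p6, minus strand, chr17:34959239-34959488) are shown as the promoter of the gene with the lowest ratio of the list, with the heat shock element GAANNTTC in capitals.
Hspa1b upstream: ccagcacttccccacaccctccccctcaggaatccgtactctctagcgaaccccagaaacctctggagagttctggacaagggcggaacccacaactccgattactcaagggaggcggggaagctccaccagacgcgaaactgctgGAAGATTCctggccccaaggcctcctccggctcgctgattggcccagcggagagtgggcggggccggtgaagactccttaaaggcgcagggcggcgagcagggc
Read on both strands within 250 bases before to 50 after the start, GAANNTTC was found in 10 of 16 heat shock genes with a RefSeq promoter (62.5%), and in 2439 of 26994 genes of the table (9.04%). Fkbp4 and Bag3 were among the 10, so genes near 0 and genes far below held the letters alike, and a match is a description of the sequence only.

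Immediate early genes, which growth factors, stress or tissue dissociation switch on within minutes, were also lower. Of 31 measured 11 were 1.5-fold lower and 0 higher, with a median of -0.39, where 3.05% of all genes were lower. The lowest were Fosl1, an AP-1 subunit (19.1 CPM in Control, 3.56 in TKI, log2 ratio -2.42, -2.99 to -1.89), and the growth regulator Myc (41.9 and 10.6 CPM, -1.99, -2.31 to -1.67). The zinc finger factor Egr1 stood at 2078 and 1231 CPM (-0.75, -0.79 to -0.72), and Fos at 5757 and 4443 (-0.37), whereas Jun (-0.10) and Klf2 (0.10) lay near 0. Arc, a cytoskeletal protein gene best known from neurons, stood at 51.3 and 19.996 CPM. Cells varied widely in this list within each library, from 16 to 566 UMIs per 10000 in Control (median 248) and from 17 to 556 in TKI (median 167). The count of lower members was 6 among cells with at least 5% contractile UMIs, 7 among cells with a Hand2, Hand2os1 or Tbx20 UMI and 17 among cells without.

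Genes that report signalling from receptor tyrosine kinases to ERK, most of them feedback inhibitors, were mainly lower. Of 17 measured 6 were 1.5-fold lower and 1 higher, with a median of -0.37, where 3.05% of all genes were lower and 5.64% higher. Spry4 and Spry2, Sprouty inhibitors of receptor kinases, had ratios of -0.98 and -0.78, the ERK phosphatase gene Dusp5 one of -0.98 (32.5 and 16.4 CPM) and the ERK target Phlda1 one of -1.31. Hbegf, a ligand of the EGF receptor, stood at 307 and 197 CPM. The member that was higher was Grap, an adaptor of receptor kinase signalling and the highest named gene of the whole comparison, at 2.22 and 9.53 CPM (2.10, 1.42 to 2.84). Among cells with at least 5% contractile UMIs 2 members were lower. Of the kinases that sunitinib inhibits, 4 were measured, with 1 lower, 0 higher and a median of -0.16. Pdgfrb, the PDGF receptor of mural cells, was the lowest of the 4, at 82.0 and 51.0 CPM (-0.69, -0.85 to -0.52). Flt1, a VEGF receptor, stood at 19.5 and 18.01 (-0.11), and Prkaa1 was the highest of the 4 at 0.06. Kit had a lower ratio than Pdgfrb and Pdgfra a higher one than Prkaa1, but both had too few UMIs to count as measured. Kdr, Flt4, Ret and Csf1r had 0 UMIs in both libraries. In Hox-positive cells 6 of these kinases were measured. Pdgfrb and Kit were 1.5-fold lower there and Pdgfra higher (0.92).

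Of all genes 3.05% were 1.5-fold lower and 5.64% higher. Cytokine and NF-kappaB genes had 5 of 13 members 1.5-fold lower, 0 higher and a median of -0.35. They were the neutrophil chemokine Cxcl1 (5.04 and 1.26 CPM), the inhibitors Tnfaip3 and Nfkbia, the NF-kappaB subunit Rel and the interferon factor Irf1 (53.97 and 18.01 CPM, -1.58, -1.84 to -1.33). With at least 5% contractile UMIs 1 member was lower and the median was 0.10. That set of cells is smaller, and members under the UMI minimum there are not counted. Cxcl1 and Tnfaip3 each had a ratio in 8 alternatives, at most -1.61 and -1.25, and Irf1 in 15, at most -1.29. Whether the shift came from changed ratios or from members no longer counted was not tested. Interferon response genes had 4 of 12 members higher (Gbp2, Stat2, Ifi27l2a and Xaf1), 0 lower and a median of 0.15, all at 12.2 CPM or less. For Ifi27l2a, 1 TKI cell held 31 of the 117 UMIs, and in Hox-positive cells its ratio was -0.87. TGF-beta targets had 5 of 21 members lower (Cdkn2b, Tgif1, the cell cycle inhibitor gene Cdkn1a, the ligand Tgfb2 and Smad6), 0 higher and a median of -0.26. Tgif1 was within 1.5-fold after thinning (-0.49), with at least 20000 UMIs (-0.55) and in cells with a Hand2, Hand2os1 or Tbx20 UMI (-0.545). Of 9 Notch genes, Hes1 (226 and 120 CPM, -0.91, -1.02 to -0.81) and Hey1 (6.66 and 3.56 CPM) were lower and 0 higher, with a median of -0.08, and Hey1 had a ratio of 0.02 in Hox-positive cells.

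**Figure D4:**
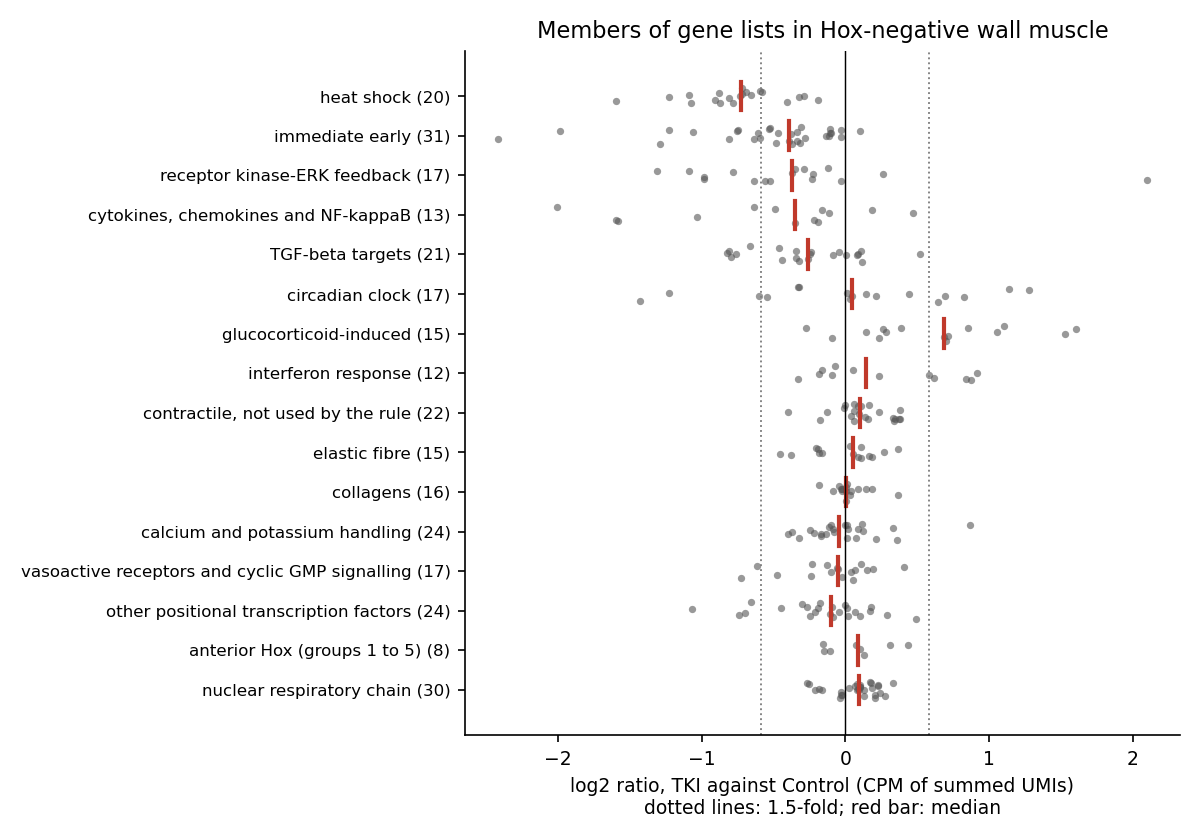
Log2 ratio of TKI to Control in Hox-negative wall muscle (x axis) for the members of 16 gene lists (rows, with the number measured), 1 point per gene, red bars at the medians and dotted lines at 1.5-fold. Heat shock genes lie wholly below 0 (median -0.73) and glucocorticoid-induced genes mainly above (median 0.69), while contractile, elastic fibre, collagen and anterior Hox genes centre near 0.

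Genes that glucocorticoid hormones induce were higher in TKI. Of 15 measured 8 were 1.5-fold higher and 0 lower, with a median of 0.69, where 5.64% of all genes were higher. Fkbp5, a co-chaperone that dampens the glucocorticoid receptor, stood at 26.6 CPM in Control and 80.9 in TKI (log2 ratio 1.60, 1.40 to 1.81) and was found in 34.2% and 70.2% of cells. The arrestin-like gene Arrdc2 had a ratio of 1.53, the leucine zipper gene Tsc22d3 one of 1.11, Pdk4, which restrains glucose oxidation, one of 1.05, and the factor Klf15 one of 0.85. The metallothionein gene Mt2 stood at 240 and 391 CPM. Sgk1, a kinase gene also induced by growth factors and cell stress, stood the other way at 240 and 198 CPM (-0.28), and Per1, shared with the clock, at 36.01 and 39.8. Per cell and 10000 UMIs the list took a median of 26 UMIs in Control (5 to 150) and 35 in TKI (8 to 181). The count of higher members was 5 among cells with no UMI of any Hox gene and 5 among those with a Hand2, Hand2os1 or Tbx20 UMI.

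Circadian clock genes differed in both directions. Of 17 measured 5 were 1.5-fold higher, 3 lower, and the median was 0.05, where 5.64% of all genes were higher and 3.05% lower. Higher were Dbp, Tef and Hlf, the PAR bZIP output factors (Dbp 52.9 and 116 CPM, log2 ratio 1.14, 0.99 to 1.29), with Per3 (3.83 and 9.32 CPM, 1.28, 0.72 to 1.87) and Ciart. Lower were Arntl, which encodes the activator BMAL1 (15.2 and 5.65 CPM, -1.43, -1.91 to -0.97), Nfil3, a repressor of the sites that Dbp binds (101 and 43.1 CPM, -1.23, -1.40 to -1.06), and the repressor gene Cry1 (-0.60). Nr1d1 and Clock each had a ratio of -0.33, and Per2 (0.03) and Cry2 (0.05) lay near 0. In Hox-positive cells 4 members were higher and 5 lower, with Arntl at -1.68 and Dbp at 1.39. Among cells with at least 20000 UMIs 1 member was higher, and among those with no UMI of any Hox gene 2. The time of day at which the arteries were taken is not given in the labels. Arntl lies on chromosome 7 at 113207465 to 113314126 on the plus strand. The 30 bases shown (GRCm38.p6, chr7:113207528-113207557) lie just after a RefSeq start of Arntl and hold, in capitals, an element to which the activator ROR and the repressor REV-ERB, the latter the product of Nr1d1, are known to bind.
Arntl element: ggaaggcagaAAGTAGGTCAgggacggagg
On either strand the ROR and REV-ERB element was found in 1 of 15 clock genes with a RefSeq promoter and in 70 of 26994 genes (0.259%), and a missing match says only that the letters are not in this window.

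**Figure D5:**
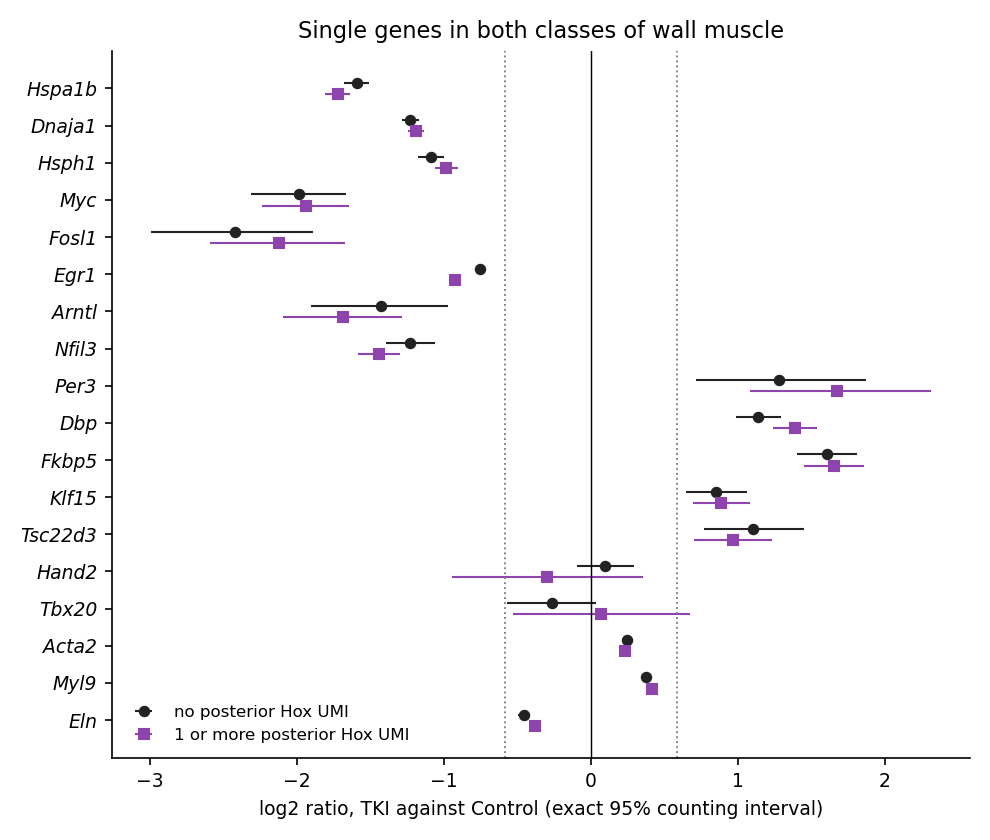
Log2 ratio of TKI to Control for 18 genes (x axis, with exact 95% counting intervals) in Hox-negative (black circles) and Hox-positive (purple squares) wall muscle, with dotted lines at 1.5-fold. Chaperone, immediate early and clock genes such as Hspa1b (-1.59) and Dbp (1.14) lie on the same side of 0 in both classes, while the intervals of Hand2 and Tbx20 include 0.

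Other stress and growth programmes were mixed, and over all genes 5.64% were 1.5-fold higher and 3.05% lower. Of 10 genes of the integrated stress response, Gdf15, Ddit3, Sesn2 and Atf4 were 1.5-fold lower and the folate enzyme gene Mthfd2 higher, with a median of -0.13. Gdf15, a stress-induced secreted factor, stood at 110 CPM in Control and 56.6 in TKI (log2 ratio -0.96, -1.11 to -0.81). Of 12 p53 targets, Trp53inp1, which promotes autophagy and cell death, was higher at 68.1 and 158 CPM (1.22, 1.09 to 1.35), and Plk2, Bbc3 and Cdkn1a were lower, with a median of -0.05. Of 30 nuclear genes of the respiratory chain 0 were 1.5-fold apart, with a median of 0.10. Of 24 genes of calcium and potassium handling, Kcnj8, a potassium channel subunit gated by ATP, was the 1 that was higher (17.6 and 32.0 CPM, 0.87, 0.59 to 1.14) and 0 were lower, with a median of -0.04. This 1 of 24 is near the share of all genes that were higher. In cells with no UMI of any Hox gene the ratio of Kcnj8 was -0.20 and that of Mthfd2 -0.22. Piezo1, the stretch channel the study addresses, stood at 4.94 and 4.40 CPM (-0.17, -0.80 to 0.46).

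The remaining genes of highest ratio by the fixed rule were Zscan12, Pgf, Commd5, Cgref1, Add3, Lgi3 and Zdhhc23, at log2 ratios between 1.48 and 1.78, and those of lowest ratio were Noct, Klf16, Ankrd37 and Mob3c, between -1.59 and -1.41. Noct, a clock-linked phosphatase gene also induced by growth factors, stood at 18.6 CPM in Control and 6.18 in TKI. Pgf, placental growth factor, which binds the VEGF receptor Flt1, stood at 6.36 and 20.6 CPM, and 1 TKI cell held 25 of its 197 UMIs. In Hox-positive cells Pgf stood at 14.9 and 24.4 CPM, a ratio of 0.71 (0.42 to 1.005). Add3, which caps actin filaments, stood at 4.74 and 14.4 CPM (1.61) and had a ratio of 1.31 in Hox-positive cells. Cgref1 (0.34) and Zscan12 (0.27) were within 1.5-fold there. The differences between the classes in these ratios were not tested. Add3 UMIs were also in 53.6% of Control and 52.5% of TKI endothelial barcodes.

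Among genes that marked the Hox-negative class, most differed little between the libraries. Enpp2 had a log2 ratio of TKI to Control of -0.25 (-0.54 to 0.04), Lpl of -0.05 (-0.41 to 0.32), Prex2 of -0.26 and Igfbp4 of -0.40 (-0.58 to -0.23). Sphkap stood at 30.8 CPM in Control and 13.9 in TKI (-1.14, -1.45 to -0.85) and Brip1 at 18.5 and 11.5 (-0.68, -1.04 to -0.33), and both were also lower in TKI in Hox-positive cells (-0.63 and -0.67). Brip1 was within 1.5-fold among cells with at least 20000 UMIs (-0.18) and cells with a Hand2, Hand2os1 or Tbx20 UMI (-0.31), among other settings. Tnnt2 stood at 17.8 and 28.0 CPM, where 1 TKI cell held 33 of 267 UMIs, and in cells without a Hand2, Hand2os1 or Tbx20 UMI its ratio was -0.79. Among guidance genes, Bmp2 was lower (22.1 and 10.99 CPM, -1.01) and Slit2 higher (1.41 and 3.87 CPM, 1.46), and Slit2 had a ratio of -0.45 in Hox-positive cells. Of the 22 genes of semaphorin, Slit, BMP and Wnt guidance measured, 2 were higher and 2 lower, with a median of -0.04. Over all genes 5.64% were higher and 3.05% lower.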

How the data were processed

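Single-cell RNA from digested arteries was measured in 3 libraries, and Control and TKI are compared here. The authors deposited UMI counts per gene and barcode, not normalized, for called cells. Cell Ranger produced the matrices, in version 6.0.0 for Control and TKI and 7.1.0 for Yoda1, per the file headers. The build is mm10, and Cell Ranger and Seurat are named, per the submitters' processing notes. The gene annotation, the use of strand and any doublet step are not given in the sources used here, and no doublets were removed here. All 3 matrices list 32285 genes. The members and gene lists were chosen with earlier results of these data known. Lists marked "measured" count members with at least 50 UMIs over both sums.

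Counts were summed per library over the cells of a class and scaled to CPM. The interval of a log2 ratio is the exact binomial interval of 1 count given the sum of both, and a count of 0 was set to 3. A gene is called higher or lower at 1.5-fold or more with at least 50 UMIs over both sums. Shares of cells carry Clopper-Pearson intervals and were repeated after thinning each cell to 10000 UMIs. Intervals cover counting error only. Endothelial reference barcodes had at least 5 UMIs of Pecam1 and Cdh5, at least 5000 UMIs and at most 1% contractile UMIs. The genes named are those of the rule, positional genes with a UMI in at least 5% of cells of a library, the 10 highest and 10 lowest per comparison with a UMI in at least 10% of cells of a library and at least 50 UMIs (for the classes, ranked by the ratio nearer to 0 of the 2 libraries), and, in each list, the 2 members of highest and 2 of lowest ratio with at least 20 UMIs. A gene among the 10 highest of the classes is not reported here. Further list members were named after their values were seen, and not every gene of these sets appears in the text. Mitochondrial, ribosomal, haemoglobin, immunoglobulin, sex-linked and predicted genes were left out of the ranking. Coordinates are those of GENCODE vM21 on GRCm38, and sequences those of RefSeq GRCm38.p6. The ratio step was tested on simulated counts. Python 3.11.15, numpy 2.4.6, scipy 1.17.1, pandas 2.3.3 and, for TMM factors, edgeR 4.0.16 in R 4.3.3 were used. Alternatives changed the UMI minimum, normalization, filters on cells and the set of Hox genes.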

Additional observations from a re-analysis of the deposited data

Results flagged for a closer look

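Ankrd37, an ankyrin repeat gene induced by low oxygen, had a log2 ratio of TKI to Control of -1.47 in Hox-negative cells (7.26 and 2.62 CPM) and of 0.14 in Hox-positive cells (5.20 and 5.73 CPM). It stands out because the ratios of the classes have opposite signs, and the difference was not tested. The ratio rests on 72 UMIs in Control and 25 in TKI.

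The Yoda1 library, which the comparisons do not use, held 15 cells that met the same rule without a posterior Hox UMI, and 17 with at least 1. Hand2 UMIs were in 7 of the 15 (46.7%, exact interval 21.3 to 73.4) and 0 of the 17 (up to 19.5%) and Tbx20 UMIs in 6 of the 15 and 0 of the 17. Tbx18 UMIs were in 8 of the 15 (26.6 to 78.7%) and 4 of the 17 (6.81 to 49.9%). That order is the other way round from the Control and TKI libraries, but the intervals overlap. Hoxa5 UMIs were in 1 of the 15 and 5 of the 17 and Sema3a UMIs in 1 and 3, in the same direction as in those libraries. The median depth was 14483 and 13814 UMIs.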

How the results depend on the processing

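No paired analysis was possible because each group is 1 library. The number of genes 1.5-fold apart depended on the UMI minimum. With at least 20 UMIs, 915 genes were higher and 492 lower for TKI against Control in Hox-negative cells, 989 were higher in Hox-positive cells, and for Hox-negative against Hox-positive cells 420 were higher and 417 lower in Control and 391 and 486 in TKI. With no minimum these numbers were 1640 and 1008, 1734 (with 1027 lower), 964 and 1141, and 967 and 1099. With no UMI of any Hox gene, 343 genes were higher in TKI, 5 glucocorticoid-induced, 2 clock and 1 contractile gene were higher, 3 cytokine genes were lower, and the ratios of Kcnj8 (-0.20) and Mthfd2 (-0.22) turned sign. With contractile genes at least 5% of UMIs, 6 immediate early, 2 ERK feedback and 1 cytokine gene were lower, and the cytokine median was 0.10. With at least 20000 UMIs, 1 clock gene was higher and the Hox-negative shares were 45.04% and 40.35%, and after thinning 62.7% and 54.1%. In cells with a Hand2, Hand2os1 or Tbx20 UMI, a setting added after the data were seen, 7 immediate early genes were lower, 5 glucocorticoid-induced genes and 1 contractile gene higher. In cells without, 17 immediate early and 3 cytokine genes were lower and Tnnt2 stood at -0.79. The settings on cells use fewer cells, and the cause of these shifts was not tested. TMM factors shifted the ratios of TKI to Control by 0.08. Of 57 single-gene ratios of TKI to Control past 1.5-fold, 3 turned sign and 15 in all lost the 1.5-fold under at least 1 alternative, among them Hes1 (-0.55 with at least 20000 UMIs), Pdgfrb (-0.545 with no UMI of any Hox gene) and Gdf15 (-0.577), Mt2 (0.53) and Cdkn2b (-0.42) in cells with a Hand2, Hand2os1 or Tbx20 UMI. Of 105 within 1.5-fold, 49 turned sign under at least 1. Of 49 ratios of Hox-negative to Hox-positive cells past 1.5-fold, 0 turned sign and 7 lost the 1.5-fold, and of 51 within it 18 turned sign. Of 5 list medians at least 0.32 from 0, that of the cytokine genes turned sign, and of 21 nearer to 0, 14 did.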
